A study of Mus with 6 samples.

Results

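The genes described here are the enzymes that make and recycle glutathione, those that attach it to other molecules, and those that remove superoxide and peroxides. They were taken from a deposited gene table by symbol alone, as the protein-coding genes named for glutathione transferases (Gst and Mgst), glutathione peroxidases (Gpx), peroxiredoxins (Prdx), thioredoxins and their reductases (Txn, Txnrd) and superoxide dismutases (Sod), with Cat, Gclc, Gclm, Gss and Gsr. This gave 53 of the 54532 genes in the table, by a rule that uses names only. RNA was sequenced from the basolateral amygdala of mice labelled CNTNAP4-KO (KO, 3 libraries) and wild type (WT, 3 libraries), all labelled female. The allele, strain and age are not in the labels. Nor do the labels say whether the 3 libraries of a group are from separate animals, so the p-values measure the spread between these libraries, which may be technical. The series title names a Lactobacillus species, but the samples analysed here carry no label of a bacterial treatment, and the comparison is KO against WT. Cntnap4 encodes a neurexin-related membrane protein of the contactin-associated family.

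Glutathione is a tripeptide built by glutamate-cysteine ligase (Gclc and Gclm) and glutathione synthetase (Gss), and its oxidised form is returned to the reduced form by glutathione reductase (Gsr) at the expense of NADPH. Superoxide dismutases turn superoxide into hydrogen peroxide, which catalase, glutathione peroxidases and peroxiredoxins then reduce. Thioredoxins, kept reduced by thioredoxin reductases, recycle the peroxiredoxins, while glutathione transferases join glutathione to lipid aldehydes and foreign compounds. In brain, astrocytes are known to hold much of this system and to supply neurons with glutathione precursors.

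Levels are given as FPKM, the fragments per kilobase of gene scaled to library size, so that genes of unlike length can be set side by side. The libraries held 15933029 to 17789798 recovered reads. Cntnap4 was at 1.08, 1.19 and 1.28 FPKM in KO libraries, against 3.53, 3.90 and 2.15 FPKM in WT libraries. All KO values lay below all WT values, with a log2 fold change of -0.92 (SE 0.18, limma adjusted p = 0.302). Libraries differed in markers of neighbouring regions. Those numbered 3 stood apart in striatal markers. Drd2, a dopamine receptor of striatal projection neurons, was at 20.6 FPKM in KO3 and 56.5 FPKM in WT3. In the other libraries it was at 0.263 and 0.453 FPKM in KO and at 2.06 and 1.37 FPKM in WT. WT1 and WT2 stood apart in hypothalamic markers. Trh, a hypothalamic peptide, was at 0.308, 0.792 and 2.02 FPKM in KO libraries, against 18.7, 21.6 and 1.28 FPKM in WT libraries. WT1 is also the library with the most Gpx3 and Gsta4, and the part of these regional differences in the results was not tested. The neurons that the labelled tissue should hold were present in all libraries, with the vesicular glutamate transporter Slc17a7 at 201 to 364 FPKM in KO and 208 to 285 FPKM in WT.

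Of the 53 genes, 38 had a mean of at least 1 FPKM over the 6 libraries and were tested with limma on log2(FPKM + 1). On this scale, differences between low values come out smaller than their ratios. The most abundant per length was Gpx4, the peroxidase that reduces lipid hydroperoxides in membranes, which took 13.3% of the summed FPKM of all 53 genes. Next came the mu-class transferases Gstm1 (12%) and Gstm5 (9.41%) and the pi-class transferase Gstp1 (7.81%). Prdx5, Prdx2 and Gpx1 also averaged at least 50 FPKM, which made 7 genes at that level. At the other end, the remaining 15 genes were under the filter, with means of at most 0.623 FPKM.

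**Figure D1:**
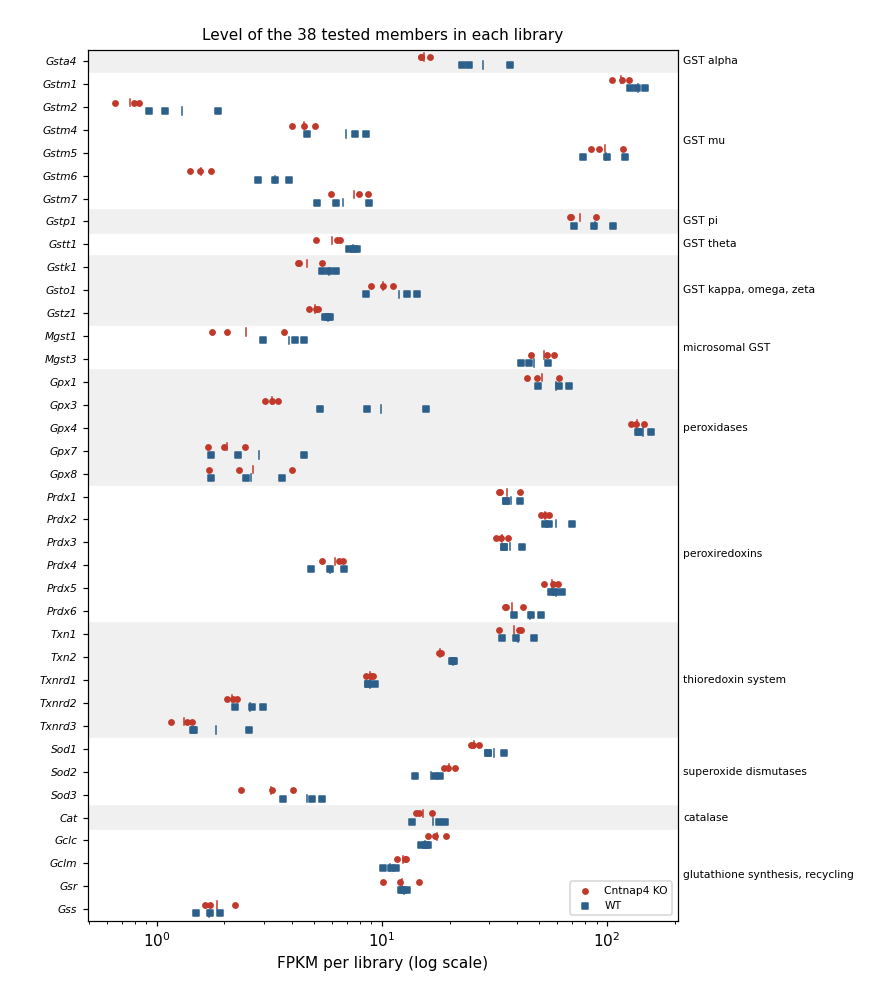
Level of each of the 38 tested genes in each library, in FPKM on a log axis, grouped by role. Red circles are KO libraries, blue squares are WT libraries and short vertical lines are group means. Levels run over about 2 orders of magnitude, with Gpx4 and Gstm1 highest and Gstm2 lowest, and for most genes the groups overlap.

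None of the 38 genes passed an adjusted p of 0.05 (0 genes with limma, and 0 with limma-voom on the recovered reads), where 1 of 13087 genes tested did, or 0.00764%, and 0 of 13087 did with the replicate block. At an unadjusted p under 0.05 the limma fit held 7 members lower in KO and 0 higher. In the limma fit the same rule took 7.25% of all genes as lower and 7.05% as higher, so the share of members lower, 18.4%, stood above that of all genes. At that p voom held 7 of the 38 members as lower and 0 as higher. Over all 13087 genes it held 1888, both directions together, and their split is not given here. With the replicate block 10 members were lower and 0 higher, where 9.92% and 7.86% of all genes were. With the 6 libraries rescaled to a common sum, 3 members were lower and 1 higher, and the split over all genes was then 580 lower and 1224 higher, against 949 and 923.

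All KO values lay below all WT values for 10 members (26.3%), where 10.1% of all genes did so. Among them, Gstm2 passed the filter only through its WT values, and without it the count was 9 of 37 (24.3%). For 2 members (5.26%), Sod2 and Gclm, all KO values lay above, where 11.9% of all genes did so. The fold change was negative for 29 of the 38 members, with a median log2 fold change of -0.17, and for 48.7% of all genes, whose median was 0.01. Most differences were small. In 34 members the log2 fold change was 0.50 or less in size, and the 4 beyond it (Gpx3, Gsta4, Gstm6 and Mgst1) were all lower in KO.

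**Figure D2:**
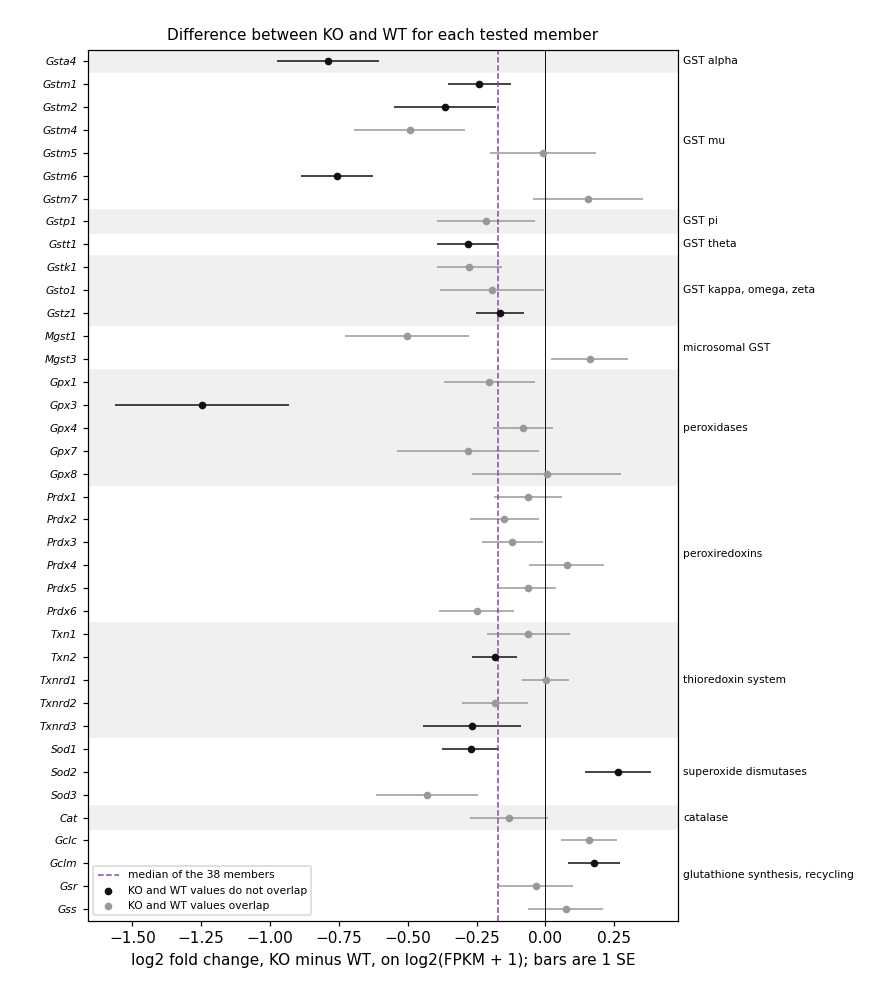
Log2 fold change, KO minus WT, of each of the 38 tested genes on log2(FPKM + 1), with bars of 1 moderated SE. Black points are genes whose 3 KO and 3 WT values do not overlap, and the dashed line is the members' median of -0.17. Gpx3, Gsta4 and Gstm6 lie farthest to the left, and none of the points passed the adjusted threshold.

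Gene length moved with these differences. The 38 members had a median length of 2001 bases in the table, against 4484 bases for the tested protein-coding genes. Protein-coding genes of 1000 to 2000 bases had a median log2 fold change of -0.17 and those of 8000 bases or more one of 0.13. The 18 members of 1000 to 2000 bases had a median of -0.22, and 15 of them were negative. The 11 members of 2000 to 4000 bases had a median of -0.13, against -0.06 for protein-coding genes of that range. The 7 members of 4000 to 8000 bases had a median of -0.16, against 0.04, with 4 of them negative. With the trend on length removed in each library, the members' median was -0.07, 23 of 38 were negative, 4 were lower and 1 was higher at an unadjusted p under 0.05 (5.16% and 7.1% of all genes), and in 6 every KO value lay under every WT value (15.8% of members, 8.3% of all genes). The 4 lower members were then Gpx3, Gsta4, Gstm6 and Sod1, and the higher one was Mgst3.

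**Figure D3:**
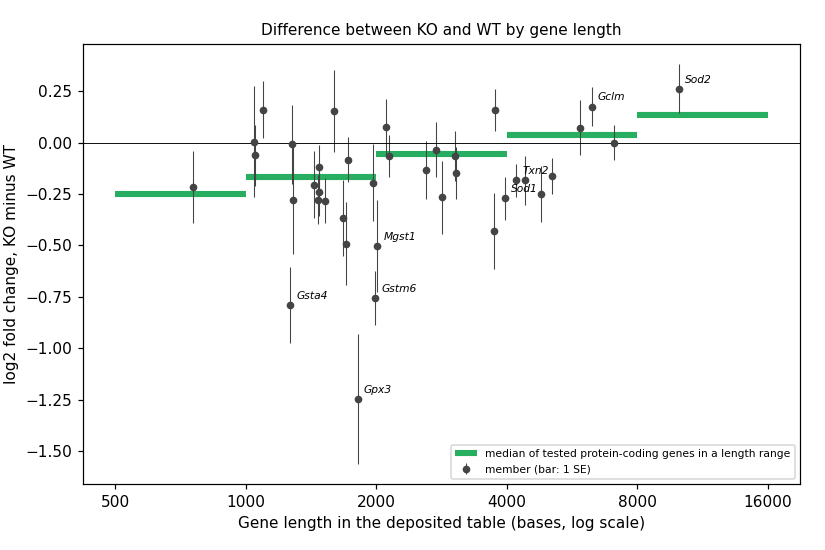
Log2 fold change, KO minus WT, of the 38 members (points, bars of 1 SE) against gene length in bases on a log axis. Green lines are medians of the tested protein-coding genes within a range of lengths, of which the first and last are open and end with the axis. Members lie on both sides of the line of their length, with Gpx3, Gsta4 and Gstm6 well below it.

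Among glutathione transferases of the alpha class, which handle lipid peroxidation products, only Gsta4 of 4 genes was tested. Its product acts on 4-hydroxynonenal, a toxic aldehyde released from oxidised lipids. Gsta4 was at 16.4, 14.9 and 15.0 FPKM in KO libraries, against 37.3, 24.3 and 22.7 FPKM in WT libraries. The KO libraries were close to each other, and all of them lay below the lowest WT library. Its log2 fold change was -0.79 (SE 0.18, adjusted p = 0.302), a ratio of means of 0.550, with about 328 reads per KO library and 621 per WT library behind it. WT1 was the highest library, and without it the log2 fold change was -0.58. Gsta3 averaged 0.232 ± 0.0690 FPKM in KO and 0.197 ± 0.0772 FPKM in WT (SD, n = 3 each), and Gsta1 and Gsta2 were at most at 0.0620 and 0.106 FPKM in any library.

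The mu class holds 7 genes next to each other on chromosome 3, between 107895821 and 108044894 in the coordinates of the table, and its members did not move together. Gstm6 was at 1.41, 1.74 and 1.56 FPKM in KO libraries, against 3.87, 3.36 and 2.83 FPKM in WT libraries. The groups did not overlap, and the log2 fold change of -0.76 (SE 0.13, adjusted p = 0.302) had the smallest unadjusted p of all members, 0.000603. It rested on about 52.3 reads per KO library and 115 per WT library.

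Gstm1, the most abundant of the class, was at 116, 106 and 125 FPKM in KO libraries, against 126, 136 and 148 FPKM in WT libraries. The highest KO library lay just under the lowest WT library, and the log2 fold change was -0.24 (SE 0.11, adjusted p = 0.379). After removal of the length trend the groups overlapped, at -0.07. Gstm4 was at 5.06, 3.99 and 4.52 FPKM in KO libraries, against 8.55, 7.60 and 4.65 FPKM in WT libraries. WT3 overlapped the KO values, and the log2 fold change was -0.49 (SE 0.20, adjusted p = 0.342).

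Gstm2 was at 0.834, 0.653 and 0.795 FPKM in KO libraries, against 1.88, 0.929 and 1.09 FPKM in WT libraries. Its mean passed the filter through the WT group only, and just 21.3 reads per KO library and 38.3 per WT library stood behind it (log2 fold change -0.37, adjusted p = 0.396, and -0.19 without WT1). Gstm5 and Gstm7, at one end of the cluster, overlapped throughout. Gstm5 averaged 98.4 ± 17.6 FPKM in KO and 99.5 ± 21.3 FPKM in WT (SD, n = 3 each), with a log2 fold change of -0.01 that turned to 0.05 with a common sum per library and to 0.18 with the length trend removed. Gstm7 averaged 7.54 ± 1.44 FPKM in KO and 6.73 ± 1.85 FPKM in WT. Gstm3 had a mean of 0 FPKM in KO and 0.0468 FPKM in WT, or about 1 read per WT library.

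These genes resemble each other in sequence, and the sources used here do not say how the authors assigned reads that match more than 1 copy. The processed pseudogene Gstm2-ps1, on chromosome 5, was at 4.82, 4.48 and 4.99 FPKM in KO libraries, against 6.10, 6.08 and 6.04 FPKM in WT libraries. It thus stood above Gstm2 itself in every library, and its groups did not overlap either. Values of single mu-class genes are therefore uncertain to the extent that reads were split between copies.

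In the pi class, Gstp1, a major transferase of brain, was at 89.3, 68.4 and 69.3 FPKM in KO libraries, against 107, 87.4 and 71.5 FPKM in WT libraries. The groups overlapped, and the log2 fold change of -0.22 (SE 0.18, adjusted p = 0.579) was 0.04 with the length trend removed and -0.07 without WT1. At 757 bases it was the shortest member tested. Its pseudogene Gstp-ps was at 14.6, 12.2 and 9.23 FPKM in KO libraries, against 16.01, 12.7 and 15.0 FPKM in WT libraries. Gstp2 and Gstp3, its neighbours on chromosome 19, averaged 0.158 and 0 FPKM in KO and 0.226 and 0.0808 FPKM in WT.

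Theta-class Gstt1 was at 6.53, 6.34 and 5.12 FPKM in KO libraries, against 7.52, 7.80 and 7.13 FPKM in WT libraries. All KO values were below all WT values, with a log2 fold change of -0.28 (SE 0.11, adjusted p = 0.331). After removal of the length trend the groups overlapped, at -0.12. Of the rest of its class, Gstt2 averaged 0.658 ± 0.177 FPKM in KO and 0.589 ± 0.108 FPKM in WT (SD, n = 3 each), Gstt3 averaged 0.384 ± 0.241 FPKM in KO and 0.491 ± 0.0971 FPKM in WT, and Gstt4 had 1 read, in KO3. Gstz1, the zeta-class enzyme of tyrosine breakdown, was at 4.75, 5.21 and 5.13 FPKM in KO libraries, against 5.92, 5.75 and 5.60 FPKM in WT libraries. Here too the groups did not overlap (log2 fold change -0.16, SE 0.09, adjusted p = 0.420), and they did not overlap with the length trend removed (log2 fold change -0.18).

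Gstk1, the kappa-class transferase of mitochondria and peroxisomes, was at 4.31, 4.24 and 5.45 FPKM in KO libraries, against 5.42, 5.82 and 6.29 FPKM in WT libraries. KO3 reached just above the lowest WT library, and the log2 fold change was -0.28 (SE 0.12, adjusted p = 0.349). After removal of the length trend it was -0.11, no longer at an unadjusted p under 0.05. Gsto1, an omega-class enzyme that reduces dehydroascorbate, was at 10.1, 11.3 and 8.91 FPKM in KO libraries, against 14.3, 12.9 and 8.49 FPKM in WT libraries. WT3 was the lowest of the 6. Its neighbour Gsto2 stayed under the filter, at 0.353, 0.223 and 0.313 FPKM in KO libraries and 0.827, 0.563 and 0.611 FPKM in WT libraries. Those groups did not overlap, on 7.67 reads per KO library and 18 per WT library.

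The microsomal transferases sit in membranes and belong to another protein family. Mgst1 was at 1.75, 2.06 and 3.68 FPKM in KO libraries, against 4.12, 2.98 and 4.53 FPKM in WT libraries. KO1 and KO2 were below all WT libraries and KO3 was not, with a log2 fold change of -0.50 (SE 0.22, adjusted p = 0.364). Mgst3, by far the more abundant, was at 54.3, 57.9 and 46.1 FPKM in KO libraries, against 41.7, 54.7 and 45.2 FPKM in WT libraries. Its log2 fold change was 0.16 (SE 0.14, adjusted p = 0.601), and 0.37 with the length trend removed. Mgst2 was nearly unread, at 0.0210 FPKM in KO and 0.0241 FPKM in WT.

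The glutathione peroxidases gave the largest difference of the set. Gpx3, the secreted peroxidase of plasma, was at 3.46, 3.02 and 3.25 FPKM in KO libraries, against 15.7, 8.64 and 5.32 FPKM in WT libraries. The KO libraries lay within a narrow range and the WT libraries spread 2.95-fold, without overlap. The log2 fold change was -1.25 (SE 0.32, adjusted p = 0.302) and the ratio of means 0.328. Without WT1 it was -0.88, without WT3 -1.58, and with both libraries numbered 3 left out also -1.58, so the size of the difference depends on which WT libraries enter.

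Markers of meningeal fibroblasts followed Gpx3 in part. Their mean deviation on the log2 scale was 0.10, -0.64 and -0.49 in KO1, KO2 and KO3, against 0.98, 0.13 and -0.08 in WT1, WT2 and WT3. WT1 was highest for both, but KO1 was above WT3 in these markers and below it in Gpx3. Of its 9 tested genes among 12, all 9 were lower on average in KO, and their median log2 fold change was -0.69. In 2 of them all KO values lay below all WT values, where 10.1% of all genes did so. The summed level of the 12 genes was 16.5 to 38.6 FPKM in KO and 37.8 to 83.2 FPKM in WT, and none was at 0 in all libraries. Slc6a13, a taurine and GABA transporter of the meninges, was at 2.35, 1.87 and 2.09 FPKM in KO libraries, against 4.95, 4.30 and 2.92 FPKM in WT libraries. In Slc13a3, a dicarboxylate transporter, the values were 2.71, 1.25 and 1.96 FPKM in KO libraries, against 6.14, 3.64 and 3.32 FPKM in WT libraries. Choroid plexus markers, of which 3 of 8 were tested, summed to 6.27 to 26.4 FPKM in KO and 18.4 to 53.9 FPKM in WT, and Clic6, a chloride channel protein, averaged 0.638 ± 0.356 FPKM in KO and 1.38 ± 0.438 FPKM in WT (SD, n = 3 each). Clic6 passed the filter through the WT group only. The part of these cells in the Gpx3 difference was not tested, and in tissue pieces fewer cells of a type and less RNA per cell cannot be told apart.

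The intracellular peroxidases differed less. Gpx4 was at 128, 134 and 146 FPKM in KO libraries, against 137, 139 and 157 FPKM in WT libraries, with a log2 fold change of -0.08 (SE 0.11, adjusted p = 0.730) that was 0.06 with the length trend removed. A Gpx4 pseudogene, Gpx4-ps2, was listed at 51.3, 50.8 and 54.4 FPKM in KO libraries, against 54.1, 59.2 and 67.7 FPKM in WT libraries, so the level of Gpx4 may be split with a close copy. Gpx1, the cytosolic peroxidase, averaged 51.5 ± 8.74 FPKM in KO and 59.4 ± 9.19 FPKM in WT (SD, n = 3 each) and overlapped. The endoplasmic reticulum enzymes Gpx7 and Gpx8 were low and variable. Gpx7 averaged 2.05 ± 0.387 FPKM in KO and 2.85 ± 1.47 FPKM in WT, and Gpx8 averaged 2.68 ± 1.19 FPKM in KO and 2.62 ± 0.941 FPKM in WT. Gpx6 reached 0.532 FPKM in KO3 and 1.17 FPKM in WT3 and at most 0.0782 FPKM in the other libraries, Gpx2 averaged 0.0301 FPKM in KO and 0.0126 FPKM in WT, and Gpx5 had no read.

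Peroxiredoxins reduce peroxides through a reactive cysteine, and none of the 6 tested was without overlap between groups. Their log2 fold changes ran from -0.25 to 0.08. Prdx6, which also acts on phospholipid hydroperoxides, was at 35.7, 35.2 and 42.6 FPKM in KO libraries, against 46.1, 38.8 and 51.1 FPKM in WT libraries. KO3 lay within the WT range, and the log2 fold change was -0.25 (SE 0.14, adjusted p = 0.423), or -0.16 without WT3. Prdx5, the most abundant, was at 57.9, 60.5 and 52.3 FPKM in KO libraries, against 58.8, 63.4 and 56.3 FPKM in WT libraries (adjusted p = 0.780).

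Mitochondrial Prdx3 averaged 34.0 ± 2.02 FPKM in KO and 37.2 ± 4.01 FPKM in WT (SD, n = 3 each), and cytosolic Prdx1 averaged 35.9 ± 4.52 FPKM in KO and 37.5 ± 3.28 FPKM in WT. Prdx2, an abundant neuronal form, averaged 53.0 ± 2.14 FPKM in KO and 59.3 ± 9.05 FPKM in WT. Its locus overlaps the opposite-strand gene Junb, whose own level ran from 41.0 to 96.3 FPKM in KO and from 37.0 to 83.4 FPKM in WT, and the sources used here do not say whether the authors counted by strand. Prdx4, of the endoplasmic reticulum, averaged 6.21 ± 0.671 FPKM in KO and 5.86 ± 0.975 FPKM in WT. Prdx6b had 1 read in KO2 and none elsewhere.

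In the thioredoxin system, the mitochondrial Txn2 was the tightest of all members. It was at 17.9, 18.3 and 18.1 FPKM in KO libraries, against 20.4, 20.8 and 20.9 FPKM in WT libraries. Both groups spread little, they did not overlap, and the log2 fold change was -0.18 (SE 0.08, adjusted p = 0.362), the same with the length trend removed. Its reductase Txnrd2 averaged 2.17 ± 0.107 FPKM in KO and 2.61 ± 0.369 FPKM in WT (SD, n = 3 each), with overlap. The cytosolic pair differed less. Txn1 was at 41.5, 33.0 and 40.9 FPKM in KO libraries, against 47.3, 39.4 and 34.3 FPKM in WT libraries, and Txnrd1 averaged 8.88 ± 0.298 FPKM in KO and 8.88 ± 0.374 FPKM in WT. Txnrd1 had a log2 fold change of 0.00 (SE 0.09). Txnrd3, described mainly from testis, was at 1.44, 1.36 and 1.16 FPKM in KO libraries, against 2.58, 1.45 and 1.46 FPKM in WT libraries, which did not overlap by a narrow margin (log2 fold change -0.27, adjusted p = 0.504, and -0.09 without WT1).

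The superoxide dismutases went in both directions. Sod1, the copper-zinc enzyme of the cytosol, was at 27.1, 25.3 and 24.8 FPKM in KO libraries, against 34.8, 29.6 and 29.7 FPKM in WT libraries. All KO libraries lay below all WT libraries, with a log2 fold change of -0.27 (SE 0.10, adjusted p = 0.325) and of -0.26 with the length trend removed. Sod2, the manganese enzyme of the mitochondrial matrix, was at 19.7, 21.2 and 18.8 FPKM in KO libraries, against 14.0, 18.2 and 17.3 FPKM in WT libraries. All KO libraries lay above all WT libraries, with a log2 fold change of 0.26 (SE 0.12, adjusted p = 0.369) that was 0.14 with the length trend removed and 0.16 without WT1. Sod3, the extracellular enzyme, averaged 3.23 ± 0.840 FPKM in KO and 4.68 ± 0.922 FPKM in WT (SD, n = 3 each), with overlap and a log2 fold change of -0.43 (SE 0.19, adjusted p = 0.356). The end of the Sod1 locus overlaps the opposite-strand gene Scaf4. Catalase, the peroxisomal enzyme, was at 14.7, 14.3 and 16.7 FPKM in KO libraries, against 17.98, 13.6 and 19.2 FPKM in WT libraries, and overlapped (log2 fold change -0.13, SE 0.14, adjusted p = 0.671).

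Of the 4 genes of glutathione synthesis and recycling, 3 had positive log2 fold changes and 1, Gsr, a negative one (-0.03). They are 2754 to 6291 bases long, against a median of 2001 bases for the tested members. With the length trend removed, Gclc was at 0.17, Gss at 0.03 and Gsr at 0.04. Gclm, the modifier subunit of glutamate-cysteine ligase, was at 11.7, 12.9 and 12.7 FPKM in KO libraries, against 10.1, 11.0 and 11.6 FPKM in WT libraries. All KO values lay above all WT values, KO1 by a small margin, with a log2 fold change of 0.18 (SE 0.09, adjusted p = 0.423). After removal of the length trend the groups overlapped, at 0.12. Gclc, the catalytic subunit, was at 19.4, 16 and 17.2 FPKM in KO libraries, against 15.7, 14.9 and 16.1 FPKM in WT libraries, and KO2 lay just inside the WT range (log2 fold change 0.16, SE 0.10, adjusted p = 0.487, and 0.09 without KO1). Glutathione reductase, Gsr, averaged 12.3 ± 2.26 FPKM in KO and 12.5 ± 0.402 FPKM in WT (SD, n = 3 each), and glutathione synthetase, Gss, averaged 1.86 ± 0.316 FPKM in KO and 1.71 ± 0.216 FPKM in WT.

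**Figure D4:**
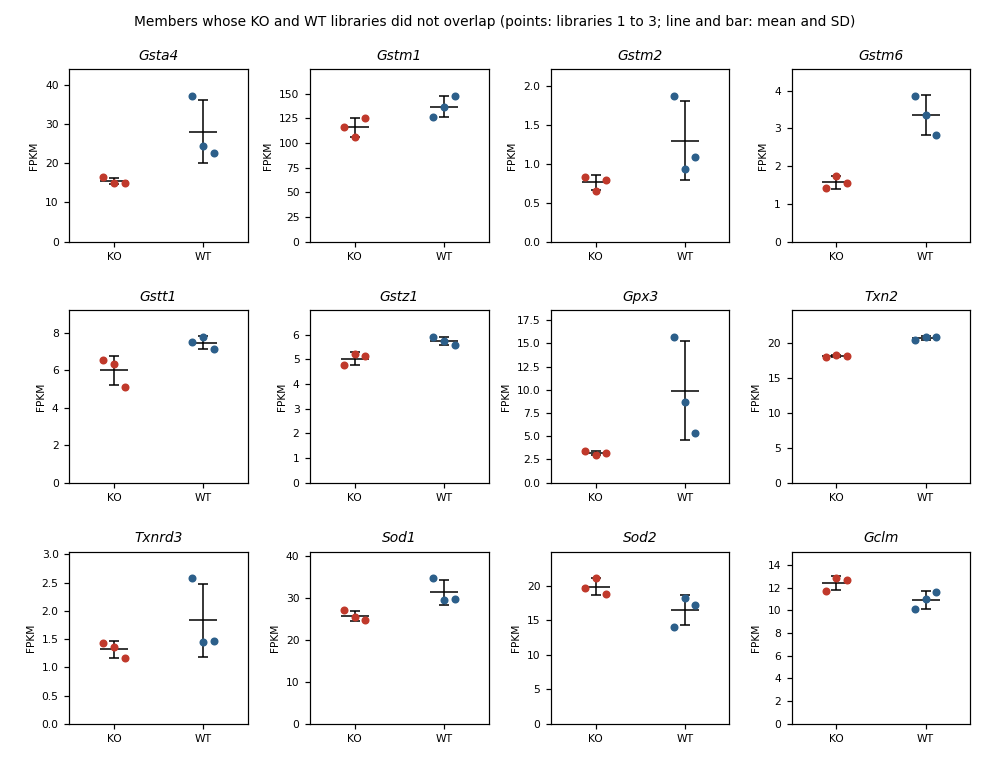
FPKM in each library for the 12 tested members whose KO and WT values do not overlap, with KO on the left, WT on the right, the mean as a line and the SD as a bar (n = 3 each), on axes from 0. KO lies below WT in 10 panels and above WT in those of Sod2 and Gclm. In Gpx3, Gsta4, Gstm2 and Txnrd3 WT1 is far above the other WT libraries.

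Grouped by features that the symbols do not carry, the members stayed mixed. Of the 6 tested selenoproteins (Gpx1, Gpx3, Gpx4 and the 3 thioredoxin reductases), 5 were negative (median log2 fold change -0.19) and 1, Txnrd1, was at 0.00. Of the 5 enzymes of the mitochondrial matrix, Prdx3, Txn2, Txnrd2 and Gstk1 had negative values and Sod2 a positive one. Of the 5 in the endoplasmic reticulum, 3 were positive and 2 negative, with a median of 0.00. Both secreted enzymes, Gpx3 and Sod3, had negative values, with unadjusted limma p-values of 0.00536 and 0.0536.

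The libraries differed within groups. WT1 was the highest library for 16 of the 38 members and WT3 for 12, while KO2 was the lowest for 16. Over all genes tested, WT1 was the highest for 24.9%, WT3 for 18.2%, and KO2 the lowest for 14.5%. The mean deviation of the members from the mean of the 6 libraries was 0.19 in WT1, 0.04 in WT2 and 0.05 in WT3, and -0.08, -0.14 and -0.07 in KO1, KO2 and KO3. Without WT1 the members' median log2 fold change was -0.09, against -0.17 with all libraries. Without KO2, 3 members were lower at an unadjusted p under 0.05 in place of 7: Gpx3, Gsta4 and Gstm6. The count over all genes without KO2 is not given here, so whether this drop is particular to the members cannot be told.

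**Figure D5:**
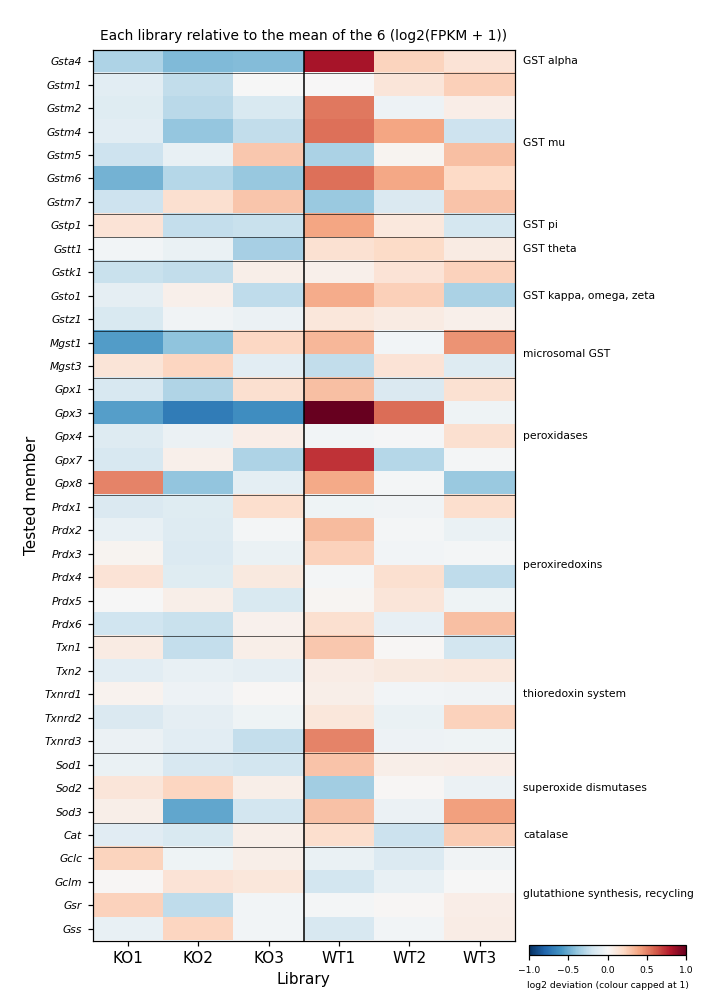
Deviation of each library from the mean of the 6 libraries on log2(FPKM + 1), for the 38 tested members, with KO libraries left of the line and WT libraries right of it. Red is above and blue below the mean, and colours are capped at 1. Gpx3 and Gsta4 are darkest in WT1, and Gstm5 and Gstm7 are red in KO3 and WT3 and blue in WT1.

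Most markers of astrocytes, microglia and oligodendrocyte precursors had negative log2 fold changes, as did many members, while those of mature oligodendrocytes were mostly positive. Over all genes tested, all KO values lay below all WT values in 10.1% and above them in 11.9%. Of 15 astrocyte markers, all of them tested, 14 had a negative log2 fold change (median -0.22), 3 had no overlap, and their summed level was 675 to 783 FPKM in KO and 735 to 941 FPKM in WT. Mlc1, of astrocyte endfeet, was at 46.7, 45.2 and 53.3 FPKM in KO libraries, against 57.9, 57.2 and 71.6 FPKM in WT libraries. Slc6a11, an astrocytic GABA transporter, was at 26.9, 27.8 and 33.1 FPKM in KO libraries, against 36.3, 34.9 and 35.3 FPKM in WT libraries, and the growth factor receptor Fgfr3 at 18.1, 18.6 and 17.1 FPKM in KO libraries, against 18.7, 21.5 and 22.9 FPKM in WT libraries.

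All 15 microglial markers were negative (median -0.32), and summed to 174 to 228 FPKM in KO and 245 to 335 FPKM in WT. In 8 of them all KO values lay below all WT values, where 10.1% of all genes did so. The complement genes C1qa and C1qb averaged 23.4 ± 3.85 and 25.9 ± 2.17 FPKM in KO and 43.4 ± 6.65 and 41.6 ± 6.68 FPKM in WT, and the receptor Fcrls 6.09 ± 0.631 FPKM in KO and 11.5 ± 3.12 FPKM in WT (SD, n = 3 each). Of 10 tested precursor markers of oligodendrocytes among 11, all 10 were negative (median -0.43, 6 with no overlap). They summed to 106 to 111 FPKM in KO and 128 to 166 FPKM in WT, with C1ql1, Pdgfra and Lhfpl3 leading. Pericyte and smooth muscle markers, 10 tested of 11, were all negative (median -0.35, 3 with no overlap), and summed to 72.6 to 96.0 FPKM in KO and 80.9 to 149 FPKM in WT, with Ndufa4l2, Myh11 and Cspg4 leading. Cspg4 is also on the list of oligodendrocyte precursors. No gene of these lists was at 0 in all libraries, and none of those named passed the adjusted threshold. Their part in the members' lower values was not tested.

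Other lists were mixed. Of 14 markers of mature oligodendrocytes 13 were positive (median 0.46, 0 with no overlap), with sums of 606 to 850 FPKM in KO and 289 to 830 FPKM in WT. Of 11 endothelial markers 9 were negative (median -0.12, 0 with no overlap), with sums of 151 to 174 FPKM in KO and 144 to 228 FPKM in WT. Of 12 projection neuron markers 8 were positive (median 0.08), led by the transcription factors Neurod6 and Tbr1 with KO above WT and by Lmo3 with KO below WT. The 11 interneuron markers were split, 5 positive and 6 negative. The GABA transporter Slc32a1 and the peptide Sst were below WT in all KO libraries, and Lamp5 and Gad1 were above. Of 12 genes of central amygdala and striatum 11 were negative (median -0.48, 0 with no overlap), with sums of 73.8 to 403 FPKM in KO and 132 to 922 FPKM in WT, highest in KO3 and WT3. By replicate number those sums were 91.4, 73.8 and 403 FPKM in KO1, KO2 and KO3, against 230.1, 132 and 922 FPKM in WT1, WT2 and WT3. They were lower in KO at each of the 3 numbers, which the labels do not state to be pairs. With the replicate block the limma adjusted p was 0.221 for Drd2, in place of 0.729, and 0.221 for Drd1, in place of 0.770. Many genes shared that value in the block fit, Cntnap4, Gpx3 and Gsta4 among them. Of the 7 blood markers 5 were negative (median -0.16, 0 with no overlap). The hypothalamic list had 3 tested genes of 9, of which 2 were negative (median -1.51). Its mean deviation was -0.73, -0.65 and -0.52 in KO1, KO2 and KO3, against 1.31, 1.12 and -0.53 in WT1, WT2 and WT3, with the peptide Avp at 0.105 to 0.600 FPKM in KO and 0.616 to 11.3 FPKM in WT. Avp, whose log2 fold change is the list's median, passed the filter through the WT group only, with means of 0.411 FPKM in KO and 4.69 FPKM in WT.

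Genes that work with the members were described from lists chosen by function. Of 25 tested partners in glutathione synthesis, transport and breakdown, 14 were positive and 11 negative (median 0.01), and 0 passed the adjusted threshold in either direction. In 3 all KO values lay above all WT values and in 1 below, where 11.9% and 10.1% of all genes did so. Abcc5, an organic anion exporter, was at 13.7, 16.1 and 14.6 FPKM in KO libraries, against 11.1, 11.3 and 12.5 FPKM in WT libraries. Slc25a39, a carrier needed for glutathione import into mitochondria, was at 19.6, 18.7 and 18.04 FPKM in KO libraries, against 26.5, 21.6 and 23.6 FPKM in WT libraries (log2 fold change -0.33, SE 0.10, adjusted p = 0.303).

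The 32 tested partners of thioredoxin and glutaredoxin were 18 positive and 14 negative (median 0.01). Without overlap 5 were below and 1 above, where 10.1% and 11.9% of all genes were. Nxn, a thioredoxin-like oxidoreductase, was at 3.95, 3.10 and 3.37 FPKM in KO libraries, against 6.12, 5.57 and 4.68 FPKM in WT libraries (log2 fold change -0.53, SE 0.13, adjusted p = 0.302). The groups did not overlap in Txndc17 and Txndc5 either, with KO below WT. Genes that supply NADPH were 14 negative and 3 positive of 17 tested (median -0.13), among them Pgls and Taldo1 of the pentose phosphate pathway, at 5.18 ± 0.601 and 31.9 ± 0.510 FPKM in KO and 6.54 ± 0.607 and 36.6 ± 4.68 FPKM in WT (SD, n = 3 each). Of these 2 lists, 0 genes passed the adjusted threshold. At an unadjusted limma p under 0.05, 4 of their 49 tested genes were lower (8.16%, against 7.25% of all genes) and 0 higher (7.05% of all genes).

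Nrf2, encoded by Nfe2l2, is the transcription factor that drives many of these genes under oxidative stress. Of 34 tested regulators and targets outside the members, 23 were negative and 11 positive (median -0.09), and 0 passed the adjusted threshold. In 7 all KO values lay below all WT values and in 1 above, where 10.1% and 11.9% of all genes did so. Ftl1, the ferritin light chain, was at 96.8, 88.3 and 94.3 FPKM in KO libraries, against 124, 112 and 138 FPKM in WT libraries (log2 fold change -0.42, SE 0.11, adjusted p = 0.302). Ephx1, an epoxide hydrolase, was at 8.52, 7.81 and 8.78 FPKM in KO libraries, against 15.5, 9.89 and 15.7 FPKM in WT libraries (log2 fold change -0.63, SE 0.18, adjusted p = 0.302). Mafk, a small Maf partner of Nrf2, averaged 2.75 ± 0.508 FPKM in KO and 4.19 ± 0.530 FPKM in WT.

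Of 24 tested genes of selenoprotein synthesis and other selenoproteins, 17 were negative and 7 positive (median -0.04), with 0 past the adjusted threshold. Without overlap 5 were below and 3 above, where 10.1% and 11.9% of all genes were. Selenow, a small redox protein abundant in neurons, was at 414, 405 and 435 FPKM in KO libraries, against 625, 507 and 745 FPKM in WT libraries (log2 fold change -0.56, SE 0.16, adjusted p = 0.302). Selenom was at 33.2, 35.4 and 33.4 FPKM in KO libraries, against 39.3, 47.1 and 42.7 FPKM in WT libraries. Dio3, the deiodinase that inactivates thyroid hormone, was at 0.240, 0.284 and 0.299 FPKM in KO libraries, against 3.40, 6.09 and 0.642 FPKM in WT libraries, with WT3 near the KO values. Dio3, which is counted above, passed the filter through the WT group only, with means of 0.274 FPKM in KO and 3.37 FPKM in WT.

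Sources of superoxide and genes of metal handling were 14 negative and 3 positive of 17 tested (median -0.09). Without overlap 3 were below and 0 above, where 10.1% and 11.9% of all genes were. Ccs, the chaperone that loads copper into Sod1, was at 7.66, 7.31 and 8.56 FPKM in KO libraries, against 9.41, 10.8 and 8.97 FPKM in WT libraries (log2 fold change -0.28, SE 0.11, adjusted p = 0.329). With the length trend removed it was -0.06, against -0.26 for Sod1. The zinc-binding metallothionein Mt3 was at 45.9, 38.5 and 42.2 FPKM in KO libraries, against 52.6, 56.9 and 65.6 FPKM in WT libraries, with log2 fold changes of -0.46 and, with the length trend removed, -0.24. The copper chaperone Atox1 averaged 28.9 ± 4.30 FPKM in KO and 34.99 ± 1.63 FPKM in WT, with log2 fold changes of -0.28 and, with the length trend removed, 0.023. Of 26 peroxisomal genes 17 were negative and 9 positive (median -0.05). Pex16 and Pex6, which build peroxisomes, averaged 7.40 ± 0.217 and 15.0 ± 0.333 FPKM in KO and 10.8 ± 0.243 and 19.2 ± 1.66 FPKM in WT. Of these last 2 lists, 0 genes passed the adjusted threshold. At an unadjusted limma p under 0.05, 2 of the 17 were lower and 0 higher, and 3 of the 26 were lower and 1 higher. By that rule 5 of the 34 Nrf2 genes were lower and 1 higher, and 4 of the 24 selenoprotein genes were lower and 1 higher. For the 25 glutathione partners, 1 was lower and 2 were higher. Over all genes, 7.25% were lower and 7.05% higher. With the length trend removed, list medians were 0.01 for glutathione partners, 0.00 for thioredoxin and glutaredoxin partners and -0.08 for NADPH supply. They were -0.07 for the Nrf2 list, -0.03 for selenoproteins, -0.03 for superoxide sources and metal handling, and -0.03 for peroxisomal genes.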

How the data were processed

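The data were RNA-seq of 6 libraries, 3 KO and 3 WT, deposited as 1 gene table. Per the file headers, the authors gave FPKM values for each library with gene length and position. Per the submitters' processing notes the genome builds were GRCm38 and mm10; the sources used here name no aligner, counter, annotation version or strand setting. Libraries came from total RNA with a SMARTER mRNA kit, per the labels' protocols. Multiplied by gene length, 100% of the FPKM values above 0 came out as whole reads (tolerance 0.01 reads). These recovered reads summed to 15933029 to 17789798 per library and were used for voom only. Genes with a mean of at least 1 FPKM over the 6 libraries (13087) were tested as log2(FPKM + 1) with limma 3.58.1 in R 4.3.3 (variance trend, two-sided, Benjamini-Hochberg over all genes, threshold 0.05). For a single gene, 3 against 3 libraries cannot give an exact permutation p below 0.1. The fit was tested on simulated data first. Members, lists and the rule for named genes (all members without overlap, of largest level or smallest p in a role class, or beyond 0.5 on the log2 scale, and up to 3 genes per list of smallest p without overlap) were chosen with earlier results of these data known. Some genes that the rule names are not reported here. Deviations of same-numbered KO and WT libraries from their group means correlated at 0.175, 0.145 and 0.330, but KO1 correlated more with WT2 (0.283). Whether the numbers pair the libraries is not stated in the labels. The fits therefore took no pairing, except the replicate block, an alternative that treats libraries of the same number as pairs. No sequences are printed, since none were used here.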

Additional observations from a re-analysis of the deposited data

How the results depend on the processing

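Of the 17 alternatives, none brought a member past the adjusted threshold. The number of genes past it was 0, in place of 1, with no filter, with quantile normalization, with the length trend removed, with no variance trend, with the replicate block and with both libraries numbered 3 left out, and 0 to 9 with 1 library left out (9 without WT3). Members higher at an unadjusted p under 0.05 numbered 1 with a common sum per library, 1 with the length trend removed, 2 with sample weights, and 0 to 1 with 1 library left out, against 0. Members lower numbered 3 with a common sum, 4 with the length trend removed, 11 with sample weights and 3 to 8 with 1 library left out, against 7. Over all genes, 580 were lower with a common sum, 675 with the length trend removed and 1529 with sample weights, against 949. Those higher numbered 1224, 929 and 1323 in the same order, against 923. Such counts over all genes are not given for 1 library left out. The replicate block gave 10 and, apart from the 1 gene counted above, changed no call. Members with all KO values above all WT values numbered 1 with quantile normalization and 1 with voom, against 2. The shares over all genes in these 2 settings are not given here. Those with all KO values below numbered 6 with a common sum and 6 with the length trend removed, against 10. These were 15.8%, 15.8% and 26.3% of members, where 6.07%, 8.3% and 10.1% of all genes met the rule. They numbered 20 with both libraries numbered 3 left out, and 10 to 18 with 1 library left out (18 without KO3). Fewer libraries make overlap rarer, and 25.6% of all genes met the rule without both libraries numbered 3 and 16.3% without KO3. The members' median log2 fold change ran from -0.22 (voom) to -0.07 (length trend removed). Among 387 alternative values of 23 named members, 6 changed sign, with the length trend removed in Gpx4 (0.062), Gstp1 (0.044), Prdx5 (0.046) and Txn1 (0.15), and in Txn1 without KO2 (0.042) and without WT1 (0.056), where its values with 1 library left out ran from -0.17 to 0.056. Cntnap4 kept its negative sign in each alternative that could be fitted; with a mean of at least 5 FPKM it was not tested. Few reads limit Gstm2, Gsto2, Gstm6 and Txnrd3.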

Other observations

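Among the genes that supply NADPH, nicotinamide nucleotide transhydrogenase (Nnt), the inner mitochondrial membrane enzyme that feeds NADPH to matrix Gsr and Txnrd2, was nearly unread in both groups. The table lists it under 2 identifiers on chromosome 13. For the first it was at 0.0260, 0.0492 and 0.00862 FPKM in KO libraries, against 0.0304, 0.0355 and 0.0673 FPKM in WT libraries, and the second had no read in any library. A deletion in Nnt is known from the C57BL/6J strain, and the labels do not name the strain of these mice.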
